A study of Mus musculus with 14 samples.

Results

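The 8 genes described here encode the pore-forming alpha1 subunits of the voltage-gated calcium channels of neurons. They are Cacna1a, Cacna1b, Cacna1c, Cacna1d, Cacna1e, Cacna1g, Cacna1h and Cacna1i. They were taken by gene symbol from a table of 55401 genes, and all 8 passed the filter on low values that left 18175 genes tested. The RNA came from the suprachiasmatic nucleus (SCN), the hypothalamic pacemaker of circadian rhythms, cut from mouse brain sections with a laser. In the labels, SVE stands for scheduled voluntary exercise, in which the running wheel was open for 6 h in every 24 h. nSVE stands for the cohort without that schedule. Vipr2-/- mice lack VPAC2, the receptor for vasoactive intestinal peptide by which SCN neurons signal to one another.

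The 14 libraries fell into 4 groups: Vipr2-/- SVE (3 libraries), Vipr2-/- nSVE (3), Vipr2+/+ SVE (4) and Vipr2+/+ nSVE (4). Both genotypes were C57BL/6, and most of the study's mice were males older than 8 weeks. All mice spent 14 days in a cycle of 12 h light and 12 h darkness and were then kept in constant darkness. SVE mice ran freely for 14 days before the wheel was restricted, and entrained within 6 to 9 days (Vipr2-/-) or 35 to 40 days (Vipr2+/+). They were killed 2 h after the wheel opened (ZT14), and nSVE mice at CT14. The series' design text gives circadian time 24 for the Vipr2+/+ SVE group and 14 for the other 3 groups. By that text, exercise in Vipr2+/+ mice and circadian phase cannot be told apart, nor can genotype and phase under SVE. The submitters had left out mice without entrainment to the wheel and nSVE mice of the Vipr2-/- genotype without a rhythm. The labels do not say that each library came from a separate mouse, so the p-values measure the spread between these libraries.

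Each alpha1 subunit folds into 4 repeats that together surround the calcium pore. L-type channels (Cacna1c and Cacna1d, also called Cav1.2 and Cav1.3) open on strong or, for Cacna1d, more modest depolarisation and couple activity to gene expression. P/Q-type (Cacna1a), N-type (Cacna1b) and R-type (Cacna1e) channels are best known for transmitter release at nerve terminals. The T-type channels (Cacna1g, Cacna1h and Cacna1i) open near the resting potential and support rebound and burst firing. In SCN neurons, L-type current is known to contribute to daytime firing, and T-type current has been recorded as well.

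The split between T-type channels and the rest is written in the selectivity filter, the ring of acidic residues, 1 from each repeat, that binds calcium in the pore. The coding sequences around the filter residue of repeat III are shown because this codon separates the 3 T-type genes from the other 5. Capitals mark the filter codon. Each run is 30 bases, 5′ to 3′ on the coding strand, taken from the GENCODE M21 transcript sequences and placed on GRCm38 by their exon coordinates.
Cacna1c: gtctccaccttcGAAgggtggccagagctg
Cacna1d: gtctcaacttttGAGggctggcccgcgttg
Cacna1a: gtgtccacaggaGAGggctggccacaggtc
Cacna1b: gtgtccacgggaGAGgggtggcccatggtg
Cacna1e: gtctctacagggGAAggatggcctcaggtt
Cacna1g: ctggcctccaagGATggctgggttgacatc
Cacna1h: ctgtcatccaagGATggctgggtaaacatc
Cacna1i: ttggcctccaagGATggctgggtgaacatc

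The codon was GAG or GAA, for glutamate, in the first 5 genes and GAT, for aspartate, in the 3 T-type genes. Over all 4 repeats, the first 5 genes had glutamate at every filter position. The 3 T-type genes had glutamate in repeats I and II and aspartate in repeats III and IV. Within the T-type group 26 to 27 of the 30 bases were identical between pairs, against 12 to 17 between a T-type gene and one of the others. The stretch lay within exon 24 in each T-type gene, whereas an exon junction ran through it in the other 5. In Cacna1g it lay at chr11:94426456-94426485 on the minus strand. In Cacna1d it ran from exon 27 to exon 28, between positions 30099240 and 30100722 of chromosome 14, minus strand. The deposited values count reads per gene and do not separate exons or isoforms.

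The genes are spread over 8 chromosomes, and their bodies run from 59.5 kb to 610 kb in the deposited coordinates (GRCm38). Cacna1g (ENSMUSG00000020866.17) spans chr11:94408391-94474198, minus strand, and Cacna1d (ENSMUSG00000015968.18) spans chr14:30039939-30491455, minus strand. Of the L-type pair, Cacna1c (ENSMUSG00000051331.16) spans chr6:118587240-119196890, minus strand. Cacna1a (ENSMUSG00000034656.18) spans chr8:84338639-84640246, plus strand. Cacna1b (ENSMUSG00000004113.18) spans chr2:24603887-24763152, and Cacna1e (ENSMUSG00000004110.17) spans chr1:154390731-154884501, both on the minus strand. Cacna1h (ENSMUSG00000024112.16) spans chr17:25374285-25433783, minus strand, and Cacna1i (ENSMUSG00000022416.15) spans chr15:80287238-80398279, plus strand. Genes on the opposite strand lie inside some of these bodies, and the strand setting of the counting is not given in the sources used here. Chdh overlaps exons of Cacna1d and had 3.57% of its mean value, and the antisense gene Gm16183 overlaps exons of Cacna1a and had 0.423%. The mRNA decapping genes Dcp1b, over Cacna1c, and Dcp1a, over Cacna1d, overlap no exon of theirs, and each had 30.5% of the mean value of its channel gene.

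The values below are gene counts divided by DESeq2 size factors, called normalised counts here. Libraries held between 17709080 and 48794679 reads on genes, and every member was counted in every library. The share of tested genes at 0 was 3.99 to 16.3% in Vipr2-/- SVE, 11.2 to 20.7% in Vipr2-/- nSVE, 1.22 to 4.65% in Vipr2+/+ SVE and 4.56 to 8.23% in Vipr2+/+ nSVE libraries. The gene Vipr2 had 90.9 to 244 normalised counts in the 6 Vipr2-/- libraries and 6247 to 10031 in the 8 Vipr2+/+ libraries. Transcripts of the SCN itself were abundant: the summed normalised count of 10 SCN neuron markers, Vipr2 among them, was at least 26034 in every library. Of 6 markers of neighbouring glutamatergic regions, Pmch was at 0 in every library, Hcrt reached 24.8, Nr5a1 150.1 and Sim1 251. Slc17a6 had 85.0 to 259 normalised counts and Slc17a7 3.63 to 581, with its highest value in a Vipr2+/+ SVE library. In such bulk samples fewer cells of a type and less RNA per cell cannot be told apart.

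Normalised counts per kilobase of annotated exon put the T-type gene Cacna1g first. Its level averaged 900.5 ± 308 per kb (SD over 14 libraries), with a range of 490 to 1606. It was the highest of the 8 in 14 of 14 libraries. Cacna1b followed with 401 ± 34.7, Cacna1a with 371 ± 69.0 and Cacna1i with 348 ± 31.4 per kb. The ranges of these 3 overlapped. Cacna1e had 240 ± 37.6, Cacna1d 230 ± 51.4 and Cacna1c 138 ± 24.4 per kb. Cacna1h was lowest with 81.7 ± 16.6 per kb, and it was the lowest in 14 of 14 libraries. Between neighbours in this order, only the step from Cacna1g (lowest library 490) to Cacna1b (highest library 479.8 per kb) exceeded the spread over libraries. Cacna1g was also above every gene after Cacna1b. Genes further apart in the order could separate too, as did Cacna1b (lowest library 359) from Cacna1e (highest library 335 per kb). With the longest annotated transcript as the length, Cacna1g had 593 to 1942 per kb and overlapped Cacna1a, then second with 355 to 696, while Cacna1h no longer overlapped Cacna1c.

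Exercise went with higher transcript levels of 2 members in Vipr2+/+ mice, the T-type gene Cacna1g and the L-type gene Cacna1d. Cacna1g was 1.85 times as high and Cacna1d 1.52 times as high in SVE as in nSVE libraries. Those were 2 of 8 members called at an adjusted p under 0.05, both higher, where 1.28% of all genes tested were called and 1.02% were called higher. No member was called lower. The other L-type gene, Cacna1c, and the P/Q-type gene Cacna1a also had higher values in every SVE than in every nSVE library but did not pass the test.

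**Figure D1:**
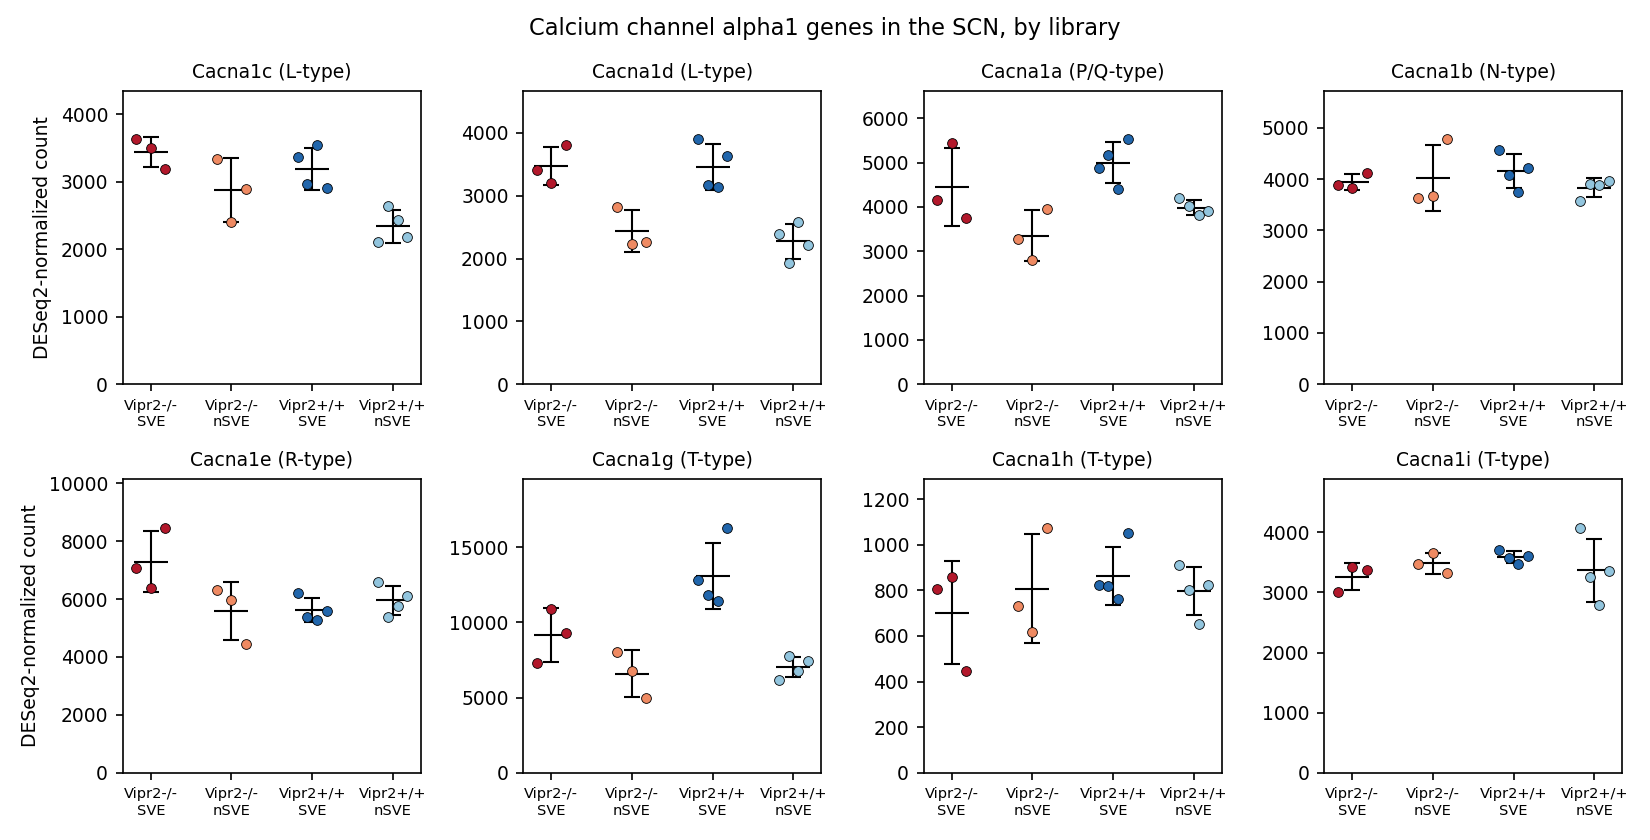
DESeq2-normalized count (linear y axis from 0) of each of the 8 alpha1 genes in every library, by group; points are libraries, the bar is the mean and the whiskers are ± 1 SD. The 4 Vipr2+/+ SVE libraries lie between 11454 and 16278 for Cacna1g, above all 10 other libraries, and in Cacna1d both SVE groups lie above both nSVE groups.

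Cacna1g encodes Cav3.1, a T-type channel. Its normalised counts were 12842, 11825, 11454 and 16278 in the Vipr2+/+ SVE libraries, against 6198, 7755, 6754 and 7428 in the Vipr2+/+ nSVE libraries. The groups did not overlap, and the lowest SVE library was well above the highest nSVE library. The log2 fold change was 0.89 ± 0.16 (SE), an interval of 1.47 to 2.33-fold at 95% confidence, with an adjusted p of 0.0164 (limma). In Vipr2-/- mice the counts were 7278, 10875 and 9316 under SVE and 8061, 6759.8 and 4972 under nSVE. Here the groups overlapped, the log2 fold change was 0.48 ± 0.18, and the adjusted p was 0.276. The difference between these exercise effects, Vipr2-/- minus Vipr2+/+, was -0.41 ± 0.24 on the log2 scale (adjusted p = 0.550), so a different response in the genotypes was not shown. Averaged over genotypes, the exercise effect on Cacna1g was 0.68 ± 0.12 (1.61-fold, adjusted p = 0.0130).

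Cacna1d encodes Cav1.3, an L-type channel that opens at lower voltages than Cav1.2. Its normalised counts were 3896, 3178, 3146 and 3633 in Vipr2+/+ SVE libraries, against 2395, 1924, 2579 and 2209.7 in Vipr2+/+ nSVE libraries. In Vipr2-/- mice they were 3410.5, 3199.6 and 3802 under SVE, against 2828, 2240.0 and 2261 under nSVE. The SVE and nSVE libraries did not overlap in either genotype. The log2 fold change was 0.61 ± 0.12 in Vipr2+/+ mice (adjusted p = 0.0232) and 0.51 ± 0.14 in Vipr2-/- mice (1.43-fold, adjusted p = 0.174). The 2 effects differed by -0.10 ± 0.18 on the log2 scale, Vipr2-/- minus Vipr2+/+, an interval of -0.49 to 0.29 (adjusted p = 0.865). The averaged exercise effect was 0.56 ± 0.09 (1.47-fold, adjusted p = 0.00817). Under both schedules Cacna1d was close between genotypes, with log2 differences of 0.01 ± 0.13 (SVE) and 0.10 ± 0.13 (nSVE), Vipr2-/- over Vipr2+/+, and adjusted p of 0.990 and 0.751.

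Both calls in Vipr2+/+ mice depended on the libraries and the model. The Cacna1g call was lost when Vipr2+/+ SVE library 1 or 4 or nSVE library 1 was left out, with log2 fold changes of 0.89, 0.78 and 0.83 and a highest adjusted p of 0.0761. It was also lost with a correction for transcript length and GC content (0.63, adjusted p = 0.122). The Cacna1d call was lost without Vipr2+/+ SVE library 1 or 4 or nSVE library 1, 2 or 4 (log2 fold changes of 0.53 to 0.63, highest adjusted p = 0.105), and with that correction (0.62, adjusted p = 0.0576). With the share of genes at 0 as a covariate Cacna1d did not pass (0.61, adjusted p = 0.0681) and Cacna1g did (0.77, adjusted p = 0.0474). The averaged exercise effects of both genes passed the test in 14 of 14 omissions of 1 library and with the length and GC correction. With the share of genes at 0 as a covariate the averaged effect was 0.56 for Cacna1g (adjusted p = 0.0672) and 0.56 for Cacna1d (adjusted p = 0.0454).

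The read share of an rRNA-related gene (CT010467.1) moved with the exercise groups. It was 2.68 to 3.72% in Vipr2-/- SVE, 3.86 to 19.4% in Vipr2-/- nSVE, 1.33 to 12.5% in Vipr2+/+ SVE and 4.80 to 21.8% in Vipr2+/+ nSVE libraries. Over the 14 libraries, which share these groups, log2 values correlated with the log2 of that share at r = -0.54 for Cacna1g and -0.71 for Cacna1d. This was not particular to them: r was -0.63 for Cacna1b, -0.57 for Cacna1c and -0.55 for Cacna1a. It was -0.20 for Cacna1h, -0.13 for Cacna1e and 0.02 for Cacna1i. At nearly equal shares, Vipr2+/+ SVE library 2 (12.5%) had 11825 normalised counts of Cacna1g and Vipr2+/+ nSVE library 3 (12.2%) had 6754. The same libraries had 3178 and 2579 of Cacna1d. With the log2 share as a covariate, a choice made after seeing the data, the Vipr2+/+ exercise effects were 0.84 for Cacna1g (adjusted p = 0.235) and 0.52 for Cacna1d (adjusted p = 0.329), and neither averaged effect passed the test.

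**Figure D2:**
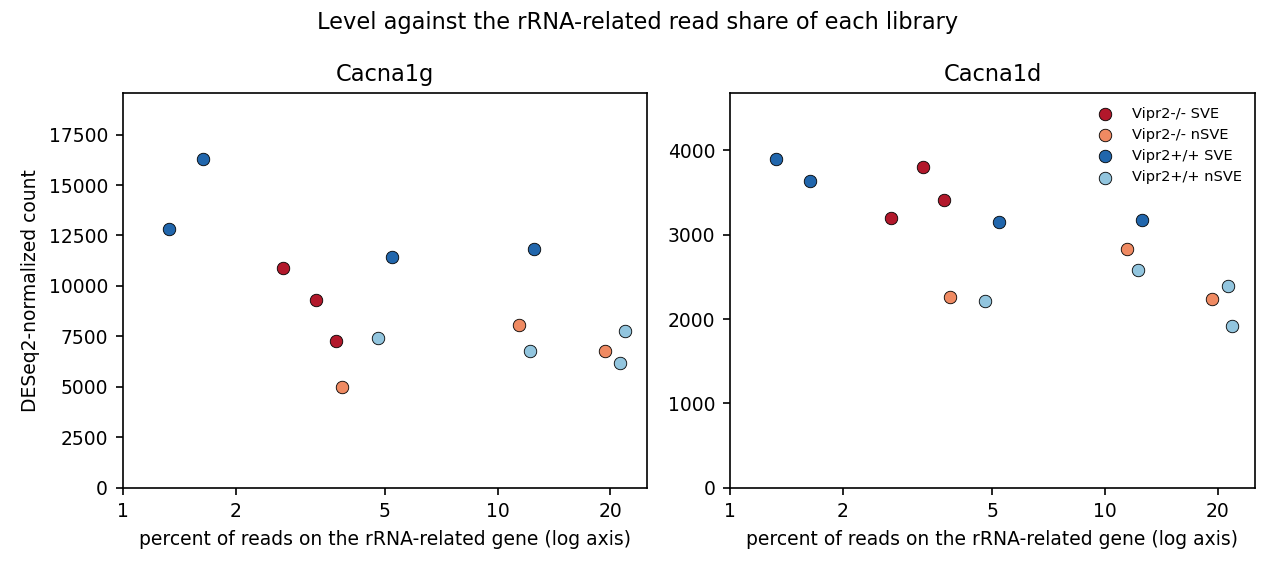
DESeq2-normalized count of Cacna1g (left) and Cacna1d (right) against the percent of each library's reads on the rRNA-related gene (log x axis); each point is 1 library, coloured by group. Shares run from 1.33 to 21.8%, and Vipr2+/+ SVE library 2 (12.5%) lies above Vipr2+/+ nSVE library 3 (12.2%) for Cacna1g. Vipr2+/+ SVE libraries 1 and 4, at 1.33 and 1.63%, have no Vipr2+/+ nSVE library of similar share.

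Some markers of cell types moved with exercise in Vipr2+/+ mice as well. Of all genes tested, 1.28% were called in this comparison, 1.02% were called higher and 8.61% were higher without overlap. The share of all genes that were lower without overlap is not given here, so such marker counts have no background beside them. The summed normalised count of the 10 oligodendrocyte markers was 47955 to 71751 in SVE and 74957 to 100923 in nSVE libraries, and 2 of the 10, Mobp and Mal, were called lower, and 5 were lower without overlap. The 9 general neuron markers summed to 122456 to 125854 in SVE and 108242 to 115411 in nSVE libraries, with none called. Among them 7 had an effect above 0 (median 0.15), and 1, Slc32a1, was higher without overlap. Of the 10 SCN neuron markers 2 were called higher, the clock-regulated signalling gene Rgs16 (log2 fold change 1.70 ± 0.18) and the neuropeptide gene Nms (0.67 ± 0.15). With Lhx1 (3261 to 4290 in SVE, 2086 to 2887 in nSVE libraries), 3 of these 10 were higher without overlap. An effect above 0 was found for 7 of them (median 0.43). The neuropeptide gene Vip went the other way, at 4687 to 6594 in SVE and 7196 to 9848 in nSVE libraries (-0.57 ± 0.16, adjusted p = 0.0915), and Avp had -0.04 ± 0.21. The 10 summed to 49810 to 60647 in SVE and 40809 to 45899 in nSVE libraries, but without Rgs16 the sums overlapped, at 38519.7 to 39840.5 in SVE and 35574 to 41439.7 in nSVE libraries. Of the 10 astrocyte markers none was called, 3 were lower without overlap (Slc1a2, Slc1a3 and Aqp4) and 1 was higher without overlap (Aldoc). Ttr, a marker of choroid plexus, had 330.0 to 2382 normalised counts in SVE and 35.1 to 99.8 in nSVE libraries (3.45 ± 1.54, adjusted p = 0.363). Their part in the Cacna1g and Cacna1d results was not tested.

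Cacna1c encodes Cav1.2, the L-type channel of heart, vessels and most neurons. Its normalised counts were 3369, 2961, 3536 and 2903 in Vipr2+/+ SVE libraries, against 2099.6, 2633, 2437 and 2187 in Vipr2+/+ nSVE libraries. Every SVE library was above every nSVE library. The log2 fold change of 0.45 ± 0.12 (1.37-fold) had an adjusted p of 0.0811. In Vipr2-/- mice the counts were 3626, 3500.5 and 3193 under SVE, against 3339, 2398 and 2899 under nSVE, which overlapped (0.27 ± 0.14, adjusted p = 0.388). The averaged exercise effect was 0.36 ± 0.09 (1.28-fold, adjusted p = 0.0633).

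Cacna1a encodes Cav2.1, the pore of the P/Q-type channel at fast synapses. Its normalised counts were 4884, 5178, 4412 and 5519 in Vipr2+/+ SVE libraries and 4190.0, 4021, 3807 and 3915 in Vipr2+/+ nSVE libraries, again without overlap. The log2 fold change was 0.32 ± 0.13 (1.25-fold, adjusted p = 0.277). In Vipr2-/- mice it had 4147, 5442 and 3747 under SVE, against 3271, 2813 and 3952 under nSVE (0.41 ± 0.15, adjusted p = 0.257). SVE library 3 was below the highest nSVE library there. The averaged exercise effect was 0.36 ± 0.10 (1.29-fold, adjusted p = 0.0753).

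The other members showed no called exercise effect in Vipr2+/+ mice. Cacna1b, the N-type pore, had 3754 to 4569 normalised counts in SVE and 3567 to 3964 in nSVE libraries (log2 fold change 0.11 ± 0.10). For the R-type gene Cacna1e the values were 5269 to 6206 in SVE and 5392 to 6582 in nSVE libraries (-0.08 ± 0.12). Cacna1h (Cav3.2), the T-type gene of lowest level, had 759.9 to 1050.1 in SVE and 654 to 912 in nSVE libraries (0.11 ± 0.22). Cacna1i (Cav3.3), the third T-type gene, had 3471 to 3712 in SVE and 2787 to 4072 in nSVE libraries (0.11 ± 0.11). The adjusted p of these 4 genes ran from 0.776 to 0.956. The 95% intervals allow changes of 0.93 to 1.26-fold for Cacna1b and of 0.78 to 1.51-fold for Cacna1h. All 8 together had a median log2 fold change of 0.22, against 0.03 over all genes tested, and 4 of 8 had SVE above nSVE in every library, where 8.61% of all genes did. At an unadjusted p under 0.05 there were 4 members, against 12.5% of all genes. DESeq2 called 3 members and edgeR 2, and of all genes DESeq2 called more and edgeR fewer than limma (see the last section).

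In Vipr2-/- mice no member was called between SVE and nSVE, and 0.116% of all genes were (limma). At an unadjusted p under 0.05 there were 4 of 8, namely Cacna1a, Cacna1d, Cacna1e and Cacna1g, against 13.8% of all genes. DESeq2 on the recovered reads called 1 member there, Cacna1d (0.51, adjusted p = 0.0414), and edgeR none. DESeq2 also called many more of all genes than limma in this comparison (see the last section), so limma's share is no background for its call. The groups did not overlap for 2 of 8 members, Cacna1d and Cacna1e, both higher under SVE, where 5.28% of all genes tested were. The members' median log2 fold change was 0.33, against 0.04 over all genes.

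The N-type gene Cacna1b and the T-type genes Cacna1h and Cacna1i had overlapping groups in Vipr2-/- mice. Cacna1b had 3890.4, 3823 and 4123 normalised counts under SVE, against 3621, 3668 and 4771 under nSVE (-0.02 ± 0.12, adjusted p = 0.972). Cacna1h had 804, 857 and 445 under SVE, against 733, 616 and 1074 under nSVE (-0.22 ± 0.26, adjusted p = 0.721). Its extremes were library 3 of each schedule, the Vipr2-/- libraries with the largest shares of tested genes at 0 (16.3% in SVE and 20.7% in nSVE). Without these libraries the Cacna1h effect was 0.31. Cacna1i had 3007, 3416 and 3366 under SVE, against 3471, 3659 and 3316 under nSVE (-0.09 ± 0.12, adjusted p = 0.748).

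Among the members, the R-type gene Cacna1e had the smallest p for the difference between the exercise effects of the 2 genotypes. It had 7068, 6369.5 and 8458 normalised counts in Vipr2-/- SVE libraries, against 6326, 5974 and 4448 in Vipr2-/- nSVE libraries. In Vipr2+/+ mice it had 6206, 5395, 5269 and 5581 under SVE, against 6582, 5392, 5758 and 6098 under nSVE. The Vipr2-/- SVE libraries were above every library of the Vipr2-/- nSVE and Vipr2+/+ SVE groups, the nearest by little, and overlapped those of Vipr2+/+ nSVE. The effect was 0.39 ± 0.14 in Vipr2-/- mice (1.31-fold, adjusted p = 0.251) and -0.08 ± 0.12 in Vipr2+/+ mice (adjusted p = 0.905). The difference between the effects was 0.48 ± 0.18 on the log2 scale, and it failed the correction (adjusted p = 0.431). No member passed the test of that difference, for which 0.0220% of all genes were called, and Cacna1e alone had an unadjusted p under 0.05, against 10.3% of all genes.

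Averaged over the genotypes, exercise had 2 of 8 members called, Cacna1d and Cacna1g, both higher. Of all genes tested 1.45% were called and 0.996% were called higher. At an unadjusted p under 0.05 there were 4 of 8, with Cacna1a and Cacna1c, against 15.0% of all genes. DESeq2 called these 4 and edgeR called 2, where DESeq2 also called more of all genes than limma and edgeR fewer (see the last section). The members' median was 0.26 on the log2 scale, against 0.05 over all genes.

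**Figure D3:**
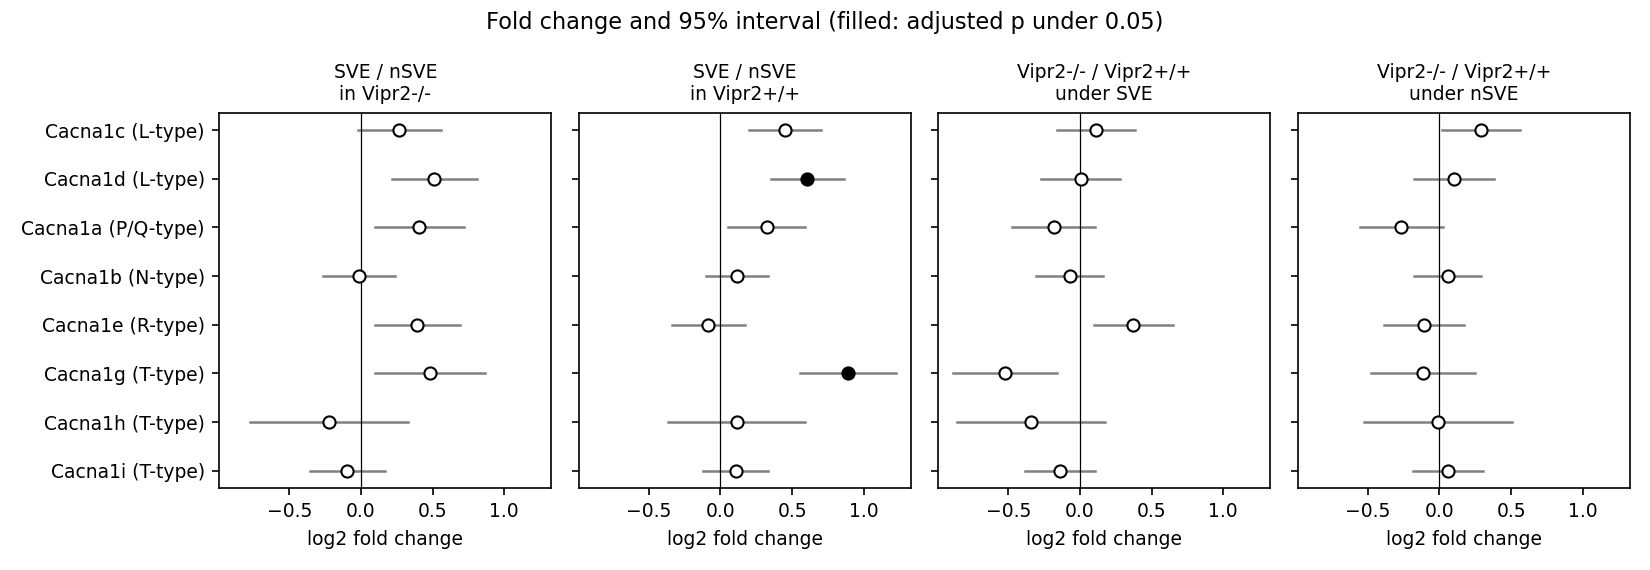
Log2 fold change (x axis) with its 95% interval for each of the 8 alpha1 genes in 4 comparisons of groups; filled circles have an adjusted p under 0.05 (limma), open circles do not. Cacna1g (0.89) and Cacna1d (0.61) are filled in SVE over nSVE of Vipr2+/+ mice, and no circle is filled in the other 3 panels.

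Loss of VPAC2 was not accompanied by a called change of any member. Under nSVE 0 of 8 were called, where 0.611% of all genes were, and 1 had an unadjusted p under 0.05, against 14.3% of all genes. That was Cacna1c, with 3339, 2398 and 2899 normalised counts in Vipr2-/- and 2099.6 to 2633 in Vipr2+/+ nSVE libraries (0.29 ± 0.13, 1.22-fold, adjusted p = 0.316). None of the 8 had groups without overlap, against 11.2% of all genes. DESeq2 and edgeR also called 0. The 95% intervals of the ratio Vipr2-/- over Vipr2+/+ lay within 0.68 to 1.48-fold for 7 members and ran from 0.69 to 1.42-fold for Cacna1h. The median log2 difference was 0.02 for the members and -0.10 for all genes.

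Under SVE 0 of 8 members were called between genotypes, where 0.176% of all genes were. Cacna1g was lower in Vipr2-/- mice, with 7278, 10875 and 9316 normalised counts, against 12842, 11825, 11454 and 16278 in Vipr2+/+ mice. The groups did not overlap, and the log2 difference was -0.52 ± 0.17 (1.44-fold lower, adjusted p = 0.198). Without Vipr2-/- SVE library 2, the highest of its group, the difference was -0.66 and the adjusted p 0.0495. Leaving out 1 library also changed how many of all genes were called (see the last section), and the share without library 2 is not given. Cacna1e was higher in Vipr2-/- mice, with 7068, 6369.5 and 8458, against 5269 to 6206 in Vipr2+/+ mice (0.37 ± 0.13, adjusted p = 0.222). These 2 had an unadjusted p under 0.05, against 15.0% of all genes. Cacna1i had 3007, 3416 and 3366 in Vipr2-/- mice and 3471 to 3712 in Vipr2+/+ mice, without overlap but with a small difference (-0.14 ± 0.12, adjusted p = 0.593). These 3 of 8 genes without overlap compare with 14.1% of all genes tested. Both other tools also called none.

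Averaged over the schedules, no member was called between the genotypes, where 1.18% of all genes were. Cacna1g (-0.32 ± 0.12, adjusted p = 0.186), Cacna1a (-0.22 ± 0.10, adjusted p = 0.239) and Cacna1c (0.20 ± 0.09, adjusted p = 0.258) had an unadjusted p under 0.05, against 17.8% of all genes. DESeq2 and edgeR called none. Of the 10 SCN neuron markers, 4 were called lower in Vipr2-/- mice at the same time, namely Vipr2 itself, Avp, Vip and Prok2. The other 6 were not called. In other marker lists, 1 oligodendrocyte marker was called lower, 1 astrocyte marker higher and 1 endothelial or mural marker lower. Without Vipr2, Avp and Vip, the remaining 7 summed to 20045 to 21184 in Vipr2-/- and 20712 to 33564 in Vipr2+/+ mice under SVE, and to 16319 to 17197 in Vipr2-/- and 13293 to 14500.3 in Vipr2+/+ mice under nSVE. Much of the SVE spread was in Rgs16, with 8750 to 9031 in Vipr2-/- and 9970 to 22013 in Vipr2+/+ libraries. Their part in the members' values was not tested.

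The make-up of the alpha1 transcripts shifted with these levels. Counted per kb of exon, T-type genes made up 46.2% of the summed level of the 8 in Vipr2-/- SVE (42.8 to 49.6%), 46.5% in Vipr2-/- nSVE (41.5 to 49.1%), 53.6% in Vipr2+/+ SVE (51.9 to 57.3%) and 46.9% in Vipr2+/+ nSVE libraries (44.4 to 48.8%). The 4 Vipr2+/+ SVE libraries were above the 10 others. Cacna1g by itself made up 31.8%, 27.7%, 39.6% and 29.2% in the same order of groups. The L-type pair made up 15.6%, 14.1%, 13.1% and 12.3%, and the P/Q, N and R types together 38.2%, 39.5%, 33.3% and 40.8%. A share falls when another member rises, so these are descriptions of the levels above and were not tested.

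**Figure D4:**
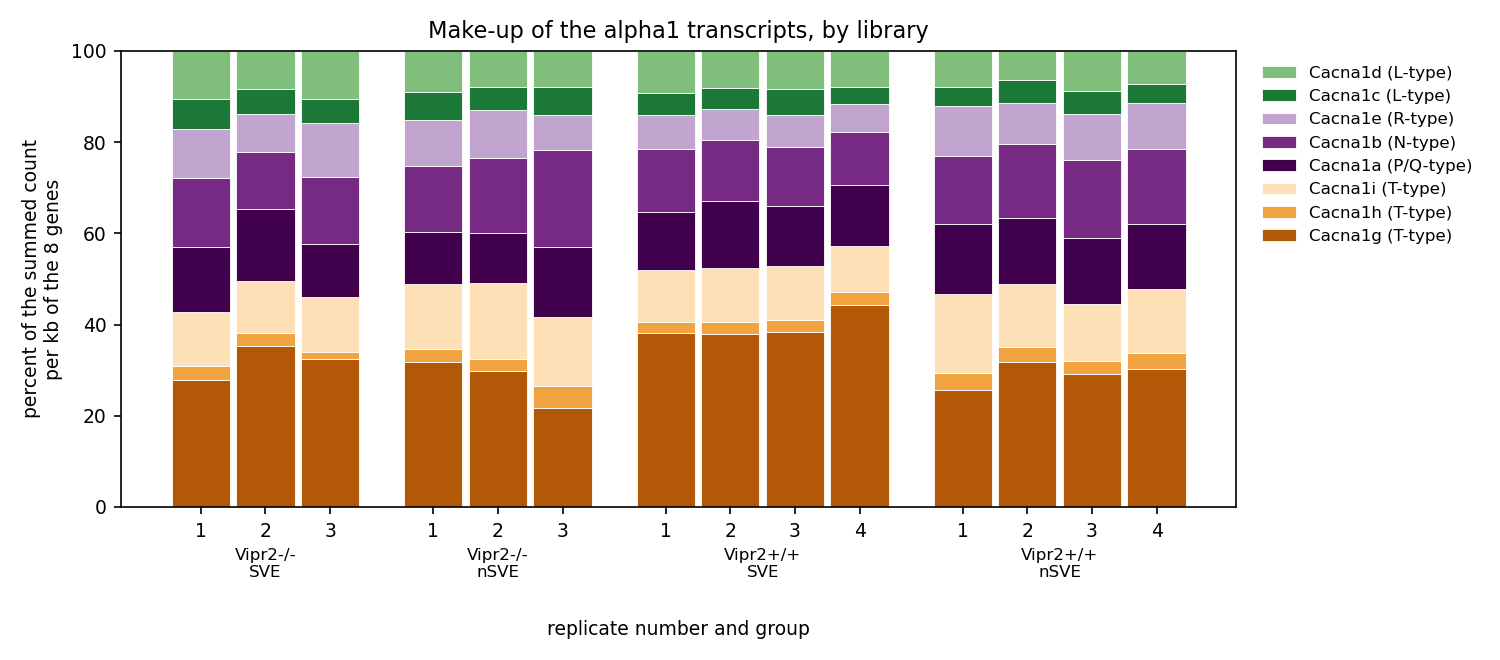
Percent of the summed normalised count per kb of exon that each alpha1 gene contributes (y axis, 0 to 100), with 1 bar per library, grouped by genotype and schedule. Cacna1g takes 37.9 to 44.2% in the Vipr2+/+ SVE libraries, against 25.5 to 31.7% in the Vipr2+/+ nSVE libraries.

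A ratio within a library does not depend on its size factor. Cacna1g over Cacna1e was 1.03, 1.71 and 1.10 in Vipr2-/- SVE libraries and 1.27, 1.13 and 1.12 in Vipr2-/- nSVE libraries. It was 2.07, 2.19, 2.17 and 2.92 in Vipr2+/+ SVE libraries and 0.942, 1.44, 1.17 and 1.22 in Vipr2+/+ nSVE libraries. The Vipr2+/+ SVE libraries were again above all others. This ratio was chosen after the values were seen.

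Log2 levels of Cacna1d and Cacna1g correlated at r = 0.73 over the 14 libraries, and those of Cacna1c and Cacna1d at 0.71. After subtraction of the group means r was 0.20 and 0.06. Cacna1a and Cacna1h, at r = 0.53 over all libraries, had r = 0.85 within groups. The libraries share groups and differ in depth, so these are descriptions. The genes most like Cacna1g over the libraries were Atxn2l (r = 0.96), Tmem145 (0.96) and Fnbp4 (0.94). Those most like Cacna1d were Miat (0.96) and Snhg11 (0.93), both long noncoding RNAs, and Kmt2a (0.91). For Cacna1c they were Vps51 (0.89), Traip (0.87) and Trpm2 (0.86), and for Cacna1a Shfl (0.93), Zer1 (0.93) and Shisa7 (0.93). Cacna1e was most like Srsf10 (0.93), Nav3 (0.92) and Cdh10 (0.92). Cacna1h was most like Flywch1 (0.93), Tssc4 (0.92) and Abhd17c (0.91). The closest to Cacna1b were Ankrd13d (0.83), Marveld1 (0.82) and Mtres1 (0.81). The closest to Cacna1i, Nsun5 (0.78), Cox5b-ps (0.77) and Slc9a8 (0.76), were the least alike of all.

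The alpha1 pores of the L, P/Q, N and R types work with auxiliary subunits. Beta subunits bind these pores inside the cell and carry them to the membrane, and alpha2delta subunits sit outside and raise surface density. Of 56 listed genes of auxiliary subunits, channel regulators, calcium stores and calcium-activated potassium channels, 53 were tested. The beta subunit gene Cacnb3 was the 1 of 53 called higher in Vipr2+/+ SVE over nSVE mice, where 1.02% of all genes were called higher. It was also the 1 called higher in the averaged exercise effect, where 0.996% of all genes were. The other 5 comparisons called none of the 53 (limma). At an unadjusted p under 0.05 there were 14 of 53 (26.4%) for genotype under SVE, against 15.0% of all genes, and 6 (11.3%) for genotype under nSVE, against 14.3%. For exercise there were 12 (22.6%) in Vipr2+/+ mice, against 12.5% of all genes, and 9 (17.0%) in Vipr2-/- mice, against 13.8%. Averaged exercise had 10 (18.9%), against 15.0%, and averaged genotype 12 (22.6%), against 17.8%. The difference between exercise effects had 8 (15.1%), against 10.3%.

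Cacnb3 had 4891, 4758, 4555 and 4662 normalised counts in Vipr2+/+ SVE libraries, against 3740.5, 3050.2, 3068 and 3008 in Vipr2+/+ nSVE libraries. The groups did not overlap, and the log2 fold change was 0.56 ± 0.11 (1.47-fold, adjusted p = 0.0249). In Vipr2-/- mice it had 4062, 5855 and 4513 under SVE, against 3788, 3677 and 4074 under nSVE, and the averaged effect was 0.43 ± 0.09 (1.35-fold, adjusted p = 0.0244). The Vipr2+/+ effect fell to 0.15 after the correction for transcript length and GC content (adjusted p = 0.911) and the averaged effect to 0.22 (adjusted p = 0.357). The Vipr2+/+ call was also lost on leaving out any 1 of the Vipr2+/+ SVE libraries or Vipr2+/+ nSVE library 2, 3 or 4 (log2 fold changes of 0.53 to 0.57, highest adjusted p = 0.0889). The averaged call was lost without Vipr2+/+ SVE library 1 or 4 or nSVE library 2 or 3 (highest adjusted p = 0.0626).

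Cacna2d3, an alpha2delta subunit, had 1730, 1281, 1874 and 1595 in Vipr2+/+ SVE libraries, against 1174, 999.5, 986 and 1165 in Vipr2+/+ nSVE libraries. Its averaged exercise effect of 0.45 ± 0.11 (1.37-fold) had an adjusted p of 0.0501, just above the threshold. It passed under 10 alternatives, among them edgeR (adjusted p = 0.0469), DESeq2 (0.00540) and TMM scaling (0.0464). Cacna2d4 had 68.6 to 260 normalised counts in Vipr2-/- and 207 to 460 in Vipr2+/+ libraries (averaged log2 difference -1.09 ± 0.29, adjusted p = 0.0741). It passed by DESeq2 (adjusted p = 0.0134) and without Vipr2-/- SVE library 2 (0.0205). Cacnb1 had 3958, 6698 and 3632 in Vipr2-/- SVE libraries and 6717 to 7508 in Vipr2+/+ SVE libraries (-0.64 ± 0.18, adjusted p = 0.151). Without Vipr2-/- SVE library 2 the difference was -0.91 (adjusted p = 0.00437), and DESeq2 called it (adjusted p = 0.0386). In each of these comparisons DESeq2 called more of all genes than limma did, and calls of all genes also changed with the library left out (see the last section). The share of all genes called without library 2 is not given.

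**Figure D5:**
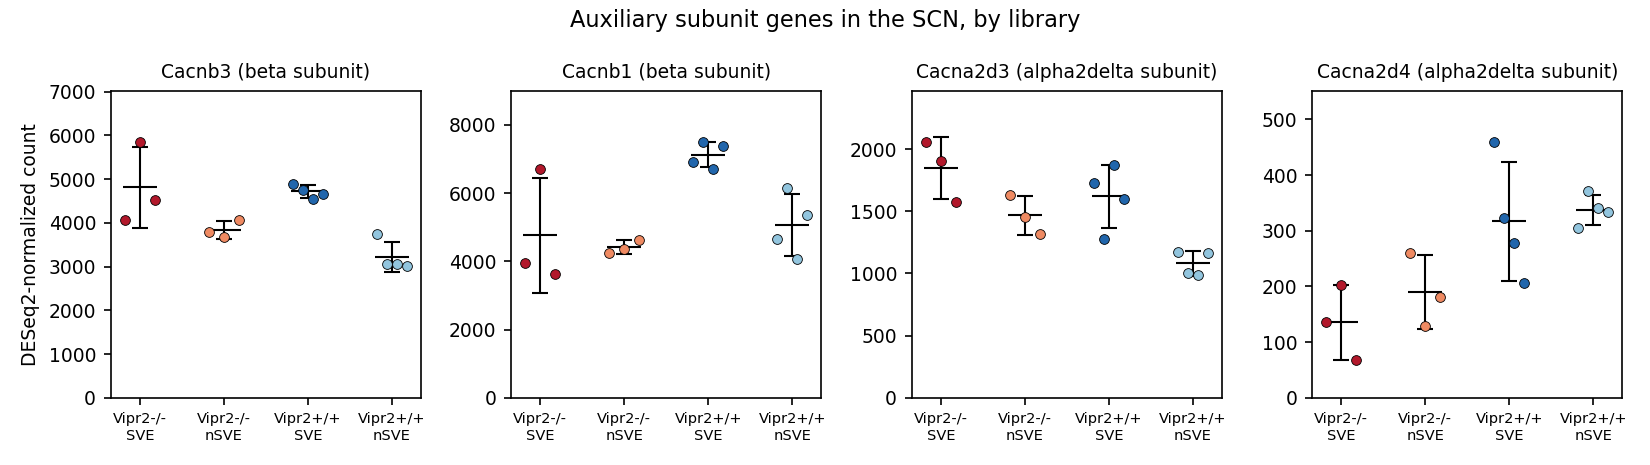
DESeq2-normalized count (linear y axis from 0) of 4 auxiliary subunit genes in every library, by group; points are libraries, the bar is the mean and the whiskers are ± 1 SD. For Cacnb3 the Vipr2+/+ SVE libraries (4555 to 4891) lie above the Vipr2+/+ nSVE libraries (3008 to 3740.5), and Vipr2-/- SVE library 2 stands high in Cacnb3 and Cacnb1.

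Among the other listed genes the smallest p-values were not called by limma. The gamma-family genes Cacng7 (-0.58 ± 0.18, adjusted p = 0.172, Vipr2-/- over Vipr2+/+ under SVE) and Cacng4 (averaged exercise effect 0.24 ± 0.09, adjusted p = 0.174) led the 6 tested of 8. The channel inhibitor gene Cbarp had a log2 difference of -0.52 ± 0.13 between the genotypes under SVE (adjusted p = 0.137). Rimbp2, whose product links calcium channels to the release site, had an exercise effect of 0.55 ± 0.14 in Vipr2+/+ mice (adjusted p = 0.0766). Of the 16 genes of stores and clearance, the mitochondrial calcium exchanger Slc8b1 had 74.4 to 252 normalised counts in Vipr2-/- SVE and 381 to 513 in Vipr2+/+ SVE libraries (-1.78 ± 0.37, adjusted p = 0.0793). The store channel gene Itpr1 had a difference of 0.63 ± 0.18 in the same comparison (adjusted p = 0.152). DESeq2 called Cbarp (adjusted p = 0.00274), Rimbp2 (0.0100), Itpr1 (0.0269) and Cacng7 (0.0356) in these comparisons, in which it called many more of all genes than limma (see the last section). Without Vipr2-/- SVE library 2 limma called Slc8b1 (-2.24, adjusted p = 0.00439), Cbarp (-0.68, 0.00795) and Itpr1 (0.75, 0.0354). The number of all genes called changed widely with the library left out (see the last section). Whether the calls under this omission are particular to these genes was not tested. Rimbp2 also passed with limma on the compared groups only (adjusted p = 0.0105) and without the sparsest Vipr2-/- libraries (0.0259). Both settings also called more of all genes than the main fit (see the last section). Calcium-activated potassium channel genes came no closer than an adjusted p of 0.309 (Kcnn1, which had a library at 0) and 0.363 (Kcnmb1). Of the muscle and retinal alpha1 genes, Cacna1f failed the filter and Cacna1s was low, at 20.0 to 163 normalised counts (SVE over nSVE in Vipr2+/+ mice 0.90 ± 0.75, adjusted p = 0.734).

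Promoter windows were looked up because the SCN clock acts through E-boxes (CACGTG, with CACGTT as a variant), D-boxes (TTANGTAA) and cyclic AMP response elements (TGACGTCA). RefSeq windows of 300 bases (GRCm38.p6, 250 before to 50 after a start) matched 5 of the 8 genes: Cacna1b (1 window), Cacna1c (3), Cacna1d (2), Cacna1e (1) and Cacna1i (1). The genes Cacna1a, Cacna1g and Cacna1h had no match. None of these 4 motifs was in any of the 8 windows, searched on both strands. Of 32851 such windows in the table, 7.15% held CACGTG, 4.68% CACGTT, 2.32% TTANGTAA and 1.79% TGACGTCA. The shorter TGACG, which the response element contains, was in the windows of Cacna1b and Cacna1i and in 1 of those of Cacna1c, against 20.8% of all windows. The Cacna1d windows are given because it was called in the exercise comparison and its starts are unalike, with a GC content of 87.3% at the inner start and 40.3% at the outer. Both are on the minus strand, shown 5′ to 3′, with no capitals since no motif matched.
Cacna1d, inner start, chr14:30353437-30353736: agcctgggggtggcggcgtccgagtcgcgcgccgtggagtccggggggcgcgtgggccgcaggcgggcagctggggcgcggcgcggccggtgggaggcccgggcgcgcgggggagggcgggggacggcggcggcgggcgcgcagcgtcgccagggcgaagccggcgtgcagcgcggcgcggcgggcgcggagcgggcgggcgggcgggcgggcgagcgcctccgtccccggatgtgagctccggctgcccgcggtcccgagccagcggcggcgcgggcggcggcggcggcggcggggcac
Cacna1d, outer start, chr14:30491107-30491406: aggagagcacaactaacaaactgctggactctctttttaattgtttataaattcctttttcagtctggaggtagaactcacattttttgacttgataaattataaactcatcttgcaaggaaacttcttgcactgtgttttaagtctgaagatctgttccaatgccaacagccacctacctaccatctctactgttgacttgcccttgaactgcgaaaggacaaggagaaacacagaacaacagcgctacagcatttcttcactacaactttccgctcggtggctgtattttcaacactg

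The gene-level counts do not separate these starts.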

How the data were processed

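Total RNA of laser-cut SCN was sequenced in 14 libraries. Per the labels' protocols, libraries were made with a kit for total RNA and sequenced from both ends. Per the submitters' processing notes and the series' design text, the authors used Trimmomatic, FastQC, HISAT2, StringTie and DESeq2. The text names GRCm38 and the notes GRCm39, and the gene coordinates in the table are those of GRCm38 (of 55141 gene IDs matched to GENCODE M21, 54821 have the same coordinates). The deposited values are gene counts divided by size factors (a normalized signal), and 100% came out as whole reads within a tolerance of 0.001.

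Differences were tested with limma 3.58.1 (R 4.3.3) on log2(value + 1) with a trend, 4 group means over all 14 libraries and Benjamini-Hochberg adjustment over the 18175 genes that reached 10 normalised counts in 3 or more libraries. A call is an adjusted p under 0.05. Fold changes are on the log2(value + 1) scale. edgeR 4.0.16 and DESeq2 1.42.0 on the recovered reads, other scalings, filters, covariates, a replicate block and omissions of 1 library were alternatives, and the fit was tested on simulated data. No pair of replicates agreed within counting noise (smallest chi-square per degree of freedom 29.3). Levels per kb used M21 exons, matched without ID version. The largest difference of a member's deposited start or end from that in M21 was 49801 bases, so the gene model counted can differ from the one used for length.

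Named genes were the 8 members, Vipr2, listed genes that were called or had the 2 smallest p-values of their channel gene list, overlapping genes, and for each member the 3 genes of highest Pearson r among tested genes with a mean of at least 50 and a symbol that is no Gm, Rik or clone name. The members and lists were chosen with earlier results of these data known.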

Additional observations from a re-analysis of the deposited data

Results flagged for a closer look

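In 2 of 44 groups of 4 libraries checked over the members, the named auxiliary genes and Vipr2, 1 library stood apart by Dixon's criterion at the 95% level (its gap to the next library as a share of the group's range). Chance flags about 1 in 20 groups, or 2.2 of 44. Cacnb3 in Vipr2+/+ nSVE had a gap of 0.918 of the range, with library 1 at 3740.5 normalised counts and the others at 3008 to 3068. Cacng4 in the same group had a gap of 0.906, with library 1 at 3279 and the others at 3715 to 3759.6.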

How the results depend on the processing

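No called result of a member changed direction under any alternative run. Small, uncalled log2 effects of Cacna1a, Cacna1b, Cacna1d, Cacna1e, Cacna1g, Cacna1h and Cacna1i did, and the cause was not tested. With the length and GC correction the effect was 0.052 for Cacna1a in genotype under SVE, 0.044 for Cacna1b in averaged genotype, -0.037 for Cacna1b in averaged exercise, -0.036 for Cacna1d in genotype under SVE, 0.0091 for Cacna1e in genotype under nSVE, -0.20 for Cacna1h in Vipr2+/+ exercise, 0.069 for Cacna1i in the difference between exercise effects, 0.071 for Cacna1i in averaged genotype, 0.11 for Cacna1i in genotype under SVE, -0.14 for Cacna1i in averaged exercise and -0.18 for Cacna1i in Vipr2+/+ exercise. With the replicate number as a block the effect was 0.0056 for Cacna1b in averaged genotype and 0.047 for Cacna1h in genotype under nSVE. With the share of genes at 0 as a covariate the effect was -0.082 for Cacna1b in genotype under nSVE, 0.063 for Cacna1b in Vipr2-/- exercise, 0.13 for Cacna1g in genotype under nSVE and 0.015 for Cacna1h in genotype under nSVE. Without the sparsest Vipr2-/- library of each schedule (library 3 in both) the effect was -0.071 for Cacna1b in genotype under nSVE, 0.082 for Cacna1b in Vipr2-/- exercise, -0.062 for Cacna1d in genotype under SVE, 0.049 for Cacna1e in genotype under nSVE, 0.075 for Cacna1g in genotype under nSVE, 0.19 for Cacna1h in the difference between exercise effects, 0.21 for Cacna1h in averaged exercise, 0.31 for Cacna1h in Vipr2-/- exercise and -0.023 for Cacna1i in averaged exercise. With the log2 rRNA share as a covariate, added after seeing the data, the effect was -0.079 for Cacna1b in averaged exercise, -0.027 for Cacna1b in Vipr2+/+ exercise and -0.088 for Cacna1h in Vipr2+/+ exercise. With TMM scaling the effect was -0.011 for Cacna1d in genotype under SVE. With edgeR the effect was -0.014 for Cacna1d in genotype under SVE and 0.0031 for Cacna1h in genotype under nSVE. With DESeq2 the effect was 0.021 for Cacna1h in genotype under nSVE and -0.00087 for Cacna1i in averaged exercise. Leaving out 1 library at a time, the effect ran from -0.073 to 0.21 for Cacna1a in the difference between exercise effects, -0.20 to 0.00040 for Cacna1b in the difference between exercise effects, -0.071 to 0.028 for Cacna1b in averaged genotype, -0.071 to 0.13 for Cacna1b in genotype under nSVE, -0.085 to 0.11 for Cacna1b in Vipr2-/- exercise and -0.16 to 0.014 for Cacna1d in the difference between exercise effects. It ran also from -0.0016 to 0.085 for Cacna1d in averaged genotype, -0.0086 to 0.16 for Cacna1d in genotype under nSVE, -0.062 to 0.064 for Cacna1d in genotype under SVE, -0.20 to 0.049 for Cacna1e in genotype under nSVE, -0.27 to 0.075 for Cacna1g in genotype under nSVE and -0.24 to 0.16 for Cacna1h in genotype under nSVE. Further ranges were -0.14 to 0.097 for Cacna1h in averaged exercise, -0.39 to 0.080 for Cacna1h in Vipr2-/- exercise, -0.082 to 0.0087 for Cacna1i in averaged genotype, -0.025 to 0.16 for Cacna1i in genotype under nSVE and -0.037 to 0.054 for Cacna1i in averaged exercise. For the difference between exercise effects, 4 genes were called, against 0 with the replicate block, 7 with the share at 0, 2 with length and GC, 13 without the sparsest libraries, 175 by DESeq2, 6 by edgeR and 1 to 36 with 1 library left out. For averaged genotype, 215 genes were called, against 139 without a filter, 69 with the replicate block, 12 with the share at 0, 386 with length and GC, 131 by edgeR, 825 by DESeq2 and 84 to 1007 with 1 library left out. For genotype under nSVE, 111 genes were called, against 49 with the replicate block, 16 with the share at 0, 53 fitted on the compared groups only, 232 without the sparsest libraries, 518 by DESeq2, 79 by edgeR and 36 to 269 with 1 library left out. For genotype under SVE, 32 genes were called, against 17 with the replicate block, 6 with the share at 0, 11 with length and GC, 13 fitted on the compared groups only, 484 by DESeq2, 22 by edgeR and 10 to 1100 with 1 library left out. For averaged exercise, 264 genes were called, against 138 without a filter, 108 with the replicate block, 57 with the share at 0, 114 with length and GC, 576 without the sparsest libraries, 919 by DESeq2, 0 with the rRNA share, 236 by edgeR and 63 to 446 with 1 library left out. For Vipr2-/- exercise, 21 genes were called, against 5 with a pseudocount of 10, 6 without a filter, 6 with a filter of 50, 4 with the replicate block, 8 with the share at 0, 0 fitted on the compared groups only, 39 without the sparsest libraries, 6 by edgeR, 394 by DESeq2, 3 with the rRNA share and 6 to 177 with 1 library left out. For Vipr2+/+ exercise, 233 genes were called, against 137 with the replicate block, 75 with the share at 0, 22 with length and GC, 1201 fitted on the compared groups only, 739 without the sparsest libraries, 727 by DESeq2, 3 with the rRNA share, 180 by edgeR and 29 to 429 with 1 library left out. For averaged exercise, 2 of 8 members were called, against 1 with the share at 0, 4 by DESeq2 and 0 with the rRNA share. Some omissions of 1 library added a member (limma). Cacna1c passed without Vipr2-/- nSVE library 1 (adjusted p = 0.0283), and Cacna1a without Vipr2-/- SVE library 3 (0.0436) or nSVE library 3 (0.0326). For Vipr2-/- exercise, 0 of 8 members were called, against 1 by DESeq2. For Vipr2+/+ exercise, 2 of 8 members were called, against 1 with the share at 0, 0 with length and GC and 3 by DESeq2. The count was 4 fitted on the compared groups only, 0 with the rRNA share and 0 to 2 with 1 library left out. For genotype under SVE, 0 of 8 members were called, against 0 to 1 with 1 library left out. With the longest transcript as the length, the level per kb was 534.4 for Cacna1a, 223 for Cacna1c, 301 for Cacna1d and 407 for Cacna1e. Whether same-numbered libraries are paired was not settled. Of 19 same-numbered pairs, 1 had a correlation of deviations over 0.1 (range -0.054 to 0.12). The best match of 9 of 14 libraries bore the same number, and no chance rate was set beside that count. The replicate block kept the 4 calls of members and ended those of Cacnb3 (adjusted p = 0.0612 for Vipr2+/+ exercise and 0.0572 averaged). Cacna1c passed in Vipr2+/+ exercise with DESeq2 (adjusted p = 0.0111), on the compared groups only (0.0233) and without the sparsest libraries (0.0445), and Cacna1a in averaged exercise without the sparsest libraries (0.0117). The length and GC correction moved the median of all genes by over 0.1 on the log2 scale, to 0.10 from -0.10 for genotype under nSVE, to 0.07 from -0.10 under SVE, to -0.07 from 0.04 for Vipr2-/- exercise and to 0.07 from -0.12 for averaged genotype, so its sign changes are relative to that shift. Groups of 3 or 4 libraries and a 3.99 to 20.7% share of genes at 0 in Vipr2-/- libraries limit what small effects can be read.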
